A study of Homo sapiens with 6 samples.

Results

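The genes described here load and complete the replicative helicase: MCM2, MCM3, MCM4, MCM5, MCM6 and MCM7, the 6 subunits of the helicase ring; CDC6 and CDT1, which load it; GMNN (geminin), which inhibits loading; and MCM10, which acts when origins fire. They were taken by Ensembl gene ID from the table of read counts, 10 of 60252 gene IDs, and were not chosen by any measured value. RNA was sequenced from RPE-1, an established human cell line that came from retinal pigment epithelium and carries telomerase. Per the labels, thymidine (2 mM for 24 h) held cells at the start of S phase, 3 washes released them, and the ATR kinase inhibitor AZ20 (ATRi, 2 µM) or its solvent DMSO was present from 1 h after the washes. The design text states that the aim was to find genes whose transcription ATR controls. It also states that each of the 6 conditions was run in 3 experiments done independently. The letters A, B and C of the count columns were taken as these experiments, which the labels do not state.

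The 4hr_release_ATRi cells had 3 h of ATRi and the 4hr_release_DMSO cells 3 h of DMSO, and both were collected at 4 h of release, described as late S phase. The 6hr_release_ATRi cells had 5 h of ATRi and the 6hr_release_DMSO cells 5 h of DMSO, and both were collected at 6 h, described as G2. G1_S_arrested cells (arrested cells below) had thymidine with no release, and Cycling cells were asynchronous. Each condition had 3 libraries (A, B and C) except 6hr_release_ATRi, which had 2 (A and B). All libraries came from 1 cell line, with no other line for comparison. Of 13 markers of retinal pigment epithelium, the labelled source, all had counts over the 17 libraries. RPE65 (2 counts), TTR (1), RGR (6), RLBP1 (7) and LRAT (17) were close to 0, and TYR (45), OTX2 (73), TYRP1 (144) and MITF (164) were low. KRT18 (9657), PMEL (10976), KRT8 (131116) and BEST1 (437759) were high, but each shares exon bases with a gene on the opposite strand. The label is thus neither borne out nor contradicted by this list. The summed CPM of 7 markers of other cell types was 9.58 or less in every library. RNA came from whole cultures, in which fewer cells of one phase and less RNA per cell cannot be told apart.

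During G1 the origin recognition complex and CDC6 sit on origins, CDT1 brings the MCM2 to MCM7 ring, and the ring is closed around DNA; this is licensing. In S phase CDT1 is destroyed and geminin binds what remains, so that fired origins are not licensed again. The genes of this system are textbook targets of the E2F transcription factors, whose activity peaks as cells enter S phase.

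Library totals ran from 1758747 to 2357561 counts, so that 2 counts in a library stand for about 1 CPM (a count scaled to library totals of 1000000), and every gene here was measured with few counts. Over all 17 libraries the totals were 1816 counts for MCM7, 608 for CDT1, 582 for MCM3, 554 for MCM2, 515 for MCM4, 324 for MCM5, 115 for MCM6, 98 for CDC6, 91 for GMNN and 89 for MCM10. GMNN did not pass the filter on low counts, so 9 of the 10 genes were tested. The library kit keeps strand, and the strand used in counting is not given in the sources used here: among 2217 coding genes paired with an antisense feature that shares exon bases, the antisense feature had more counts in 1584 (71.4%). BEST1, for example, had 437759 counts and FTH1, the ferritin heavy chain gene on the other strand, 4528. Whether the counts of a gene are reads of its own strand or of the opposite one is therefore uncertain for every gene below. MCM7 shares 392 exon bases with AP4M1, an adaptor-complex gene on the opposite strand that had 16217 counts. MCM2 shares 45 with TPRA1, which had 168, and 1113 with ENSG00000285600, which was not analysed here. Reads of MCM7 and AP4M1, and of MCM2 and its partners, can therefore not be told apart with certainty, and the other 8 genes have no exon overlapped on the opposite strand.

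The promoters of 8 of the 10 genes were found in RefSeq windows of 250 bases before to 50 after each gene start (GRCh38.p14), and they are shown because the E2F site is what these genes are known to share. The E2F motifs searched were TTTGGCGC, TTTGCCGC, TTTCGCGC and TTTCCCGC, on both strands, and overlapping matches were allowed. A motif was present in any window of 7 of the 8 genes, all but MCM10, against 3.99% of the 27305 symbols with a window and 3.31% of the 35116 windows. Other windows of 2 of these genes held no match: GMNN had one in window 2 and none in window 1, and MCM7 had matches in window 1 and none in windows 2 and 3. A match is a description of letters, not of binding. The stretches below hold the matches, in capitals, 5′ to 3′ on the strand of the gene, ending at most 25 bases after the gene start.
MCM2, chr3:127598398-127598435 (+): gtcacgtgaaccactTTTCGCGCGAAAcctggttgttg
MCM3, chr6:52284724-52284931 (-): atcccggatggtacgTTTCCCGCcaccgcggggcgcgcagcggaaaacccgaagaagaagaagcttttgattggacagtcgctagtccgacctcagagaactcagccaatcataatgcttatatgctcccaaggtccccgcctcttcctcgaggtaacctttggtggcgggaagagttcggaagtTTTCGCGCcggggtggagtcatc
MCM6, chr2:135876507-135876610 (-): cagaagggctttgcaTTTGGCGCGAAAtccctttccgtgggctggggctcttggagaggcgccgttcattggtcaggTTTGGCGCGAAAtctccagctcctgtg
MCM7, chr7:100101384-100101599 (-): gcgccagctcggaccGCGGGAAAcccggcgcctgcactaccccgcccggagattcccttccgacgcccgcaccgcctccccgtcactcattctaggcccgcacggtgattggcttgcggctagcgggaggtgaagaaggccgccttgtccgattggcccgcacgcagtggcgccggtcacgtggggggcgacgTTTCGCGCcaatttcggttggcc
CDC6, chr17:40287871-40287903 (+): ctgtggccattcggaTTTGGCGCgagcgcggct
CDT1, chr16:88803739-88803776 (+): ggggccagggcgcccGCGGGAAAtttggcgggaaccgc
GMNN, chr6:24775318-24775355 (+): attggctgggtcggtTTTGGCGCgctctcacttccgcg
In MCM2 and MCM6, matches on the 2 strands overlap to form the longer runs of capitals. Of the genes whose RNA is described below as lower on release, MCM3, CDC6 and CDT1 are among those with a match, and so are MCM6 and MCM7, which did not pass the test in any comparison.

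Per length of exon (CPM per kilobase, mean ± SD over 17 libraries), MCM7 was at 12.2 ± 2.56, CDT1 at 5.32 ± 2.62, MCM3 at 4.66 ± 2.61, MCM2 at 3.29 ± 1.53 and MCM4 at 2.15 ± 0.864. MCM5 (1.28 ± 0.528), GMNN (1.05 ± 0.679), MCM6 (0.817 ± 0.485), CDC6 (0.521 ± 0.457) and MCM10 (0.474 ± 0.345) were lower. The subunits of one ring were thus counted at unequal levels per length, and the reads of MCM7 cannot be separated from those of AP4M1.

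The CPM of the 6 ring subunits summed to 155, 125 and 134 in arrested cells A, B and C. In ATRi cells at 4 h the sums were 110, 63 and 101, and in DMSO cells at 4 h 125, 107 and 88.1. In ATRi cells at 6 h they were 75.6 and 90, in DMSO cells at 6 h 103, 77.9 and 95.3, and in cycling cells 183, 175 and 132. The sum was highest in cycling cells and second in arrested cells, with overlapping ranges, and every library of either 6 h condition lay below every arrested library.

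**Figure D1:**
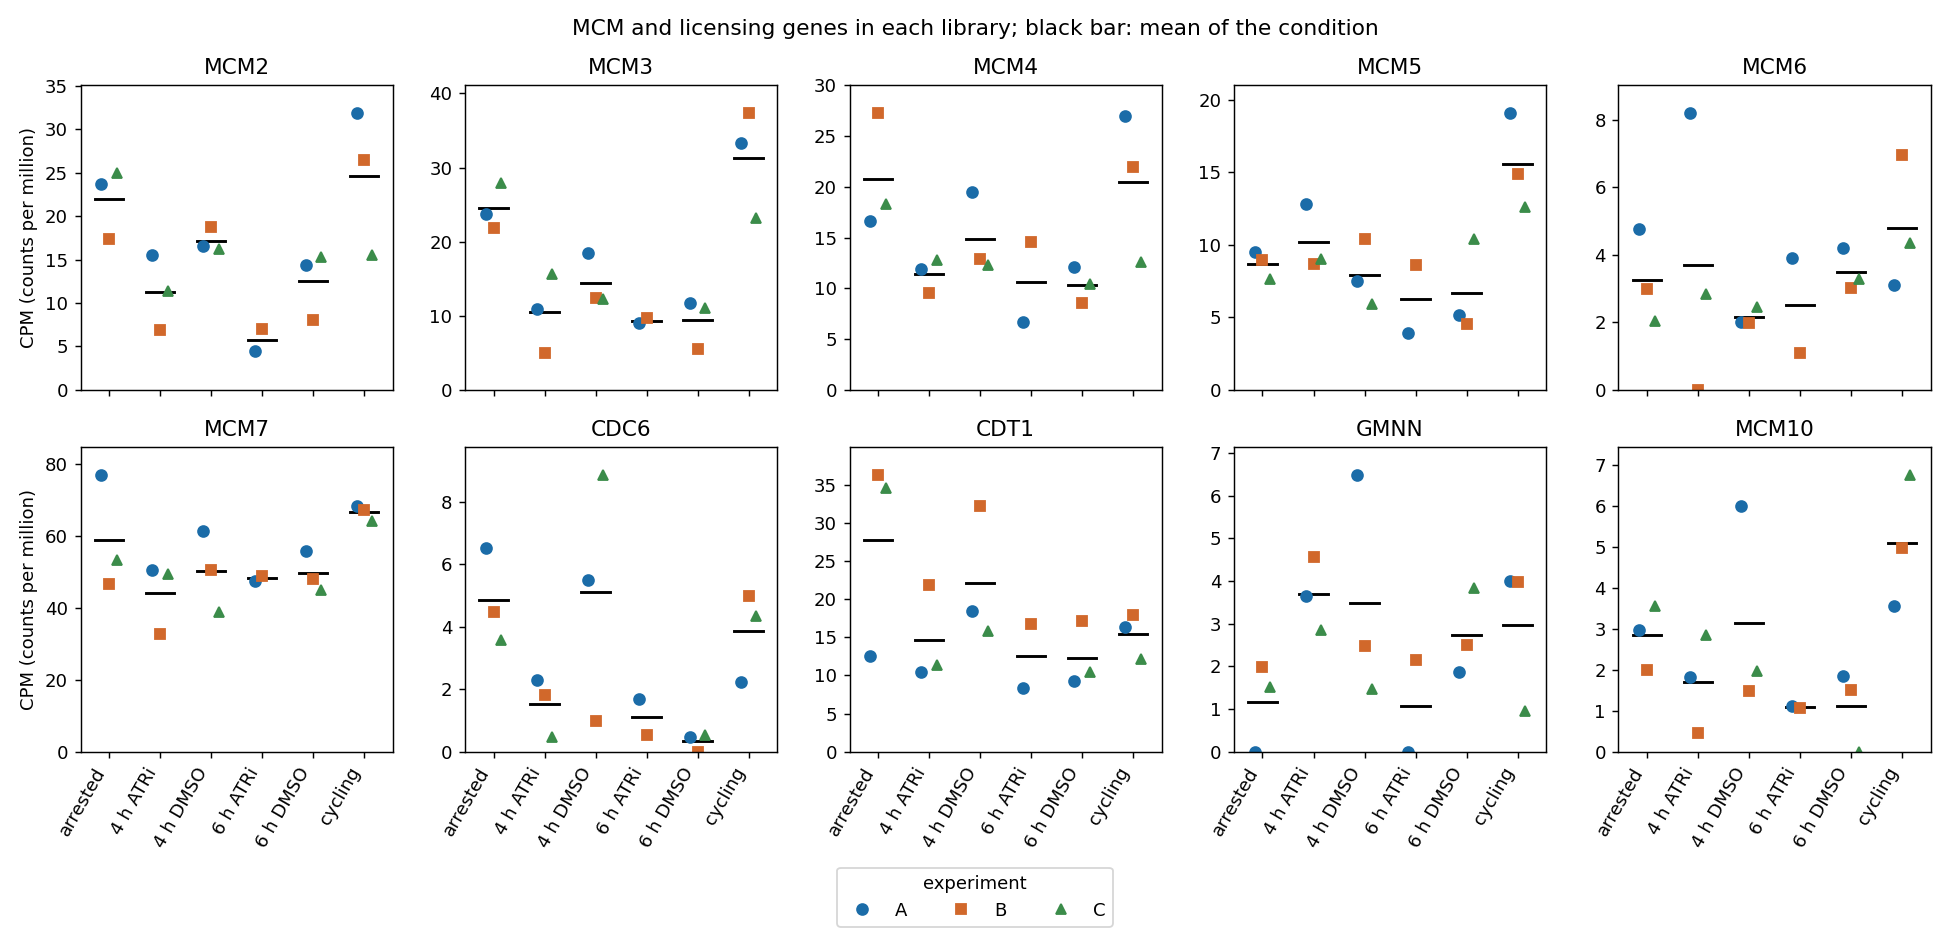
CPM (vertical axes, from 0) of the 10 genes in each of the 17 libraries, by condition (horizontal axes), with a marker per experiment and a black bar at the mean of the condition. MCM3, MCM4 and CDT1 have their lowest means in both 6 h conditions, and MCM2 has its lowest mean in ATRi cells at 6 h. CDC6 was at 0.548 CPM or less in the 3 DMSO libraries at 6 h.

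The comparison of released with arrested cells follows the genes from the start of S phase to G2. At 6 h with DMSO, MCM3 fell against arrested cells, and it was the only 1 of the 9 tested genes called lower, where 1.06% of all 13510 features tested were called lower. A call is an adjusted p under 0.05 in edgeR's quasi-likelihood test with Benjamini-Hochberg adjustment over all features, two-sided. With the experiment as a block, CDC6, CDT1 and MCM4 joined it, 4 of 9 called lower where 3.94% of features were. DESeq2, which gave an adjusted p to 6 of the 10 genes, called MCM3 lower, where 2.09% of its features were. The median log2 change of the 9 was -1.0, against -0.01 over all features, and 8 of the 9 were negative. Libraries of the 6 h group all lay below the arrested libraries for 5 of the 10 genes, MCM2, MCM3, MCM4, CDC6 and MCM10, where 8.26% of features did so.

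MCM3, in budding yeast the subunit through which the ring first meets the origin-bound loader, had 11.7, 5.52 and 11 CPM in DMSO cells at 6 h (A, B and C), against 23.7, 21.9 and 27.9 in arrested cells. All 3 released libraries lay below all 3 arrested ones, and the fall was seen within each experiment, with log2 ratios of -1.03, -1.99 and -1.35. The edgeR log2 change was -1.38 ± 0.34 (SE), with an adjusted p of 0.0229, or 2.26e-04 with the block, and DESeq2 gave -1.38 with an adjusted p of 0.0152. The call in the edgeR fit without the block was lost in 4 of the 6 fits that left out a library: the adjusted p was 0.0744 without arrested A, 0.123 without arrested C, 0.126 without 6 h DMSO B and 0.0648 without 6 h DMSO C. In those 6 fits the log2 change stayed between -1.56 and -1.11.

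MCM4, the subunit with the phosphorylation sites of the kinase CDC7 that trigger firing, had 12.1, 8.54 and 10.4 CPM in DMSO cells at 6 h, against 16.6, 27.3 and 18.3 in arrested cells. The groups did not overlap. Its log2 change was -1.0 ± 0.33, with an adjusted p of 0.137, and it was called only with the block (adjusted p 0.0177); arrested B, the highest library of this gene, widened the difference, and without experiment B the change was -0.60. MCM2, whose tail also binds histones, had 14.4, 8.04 and 15.3 CPM in DMSO cells at 6 h, against 23.7, 17.4 and 24.9 in arrested cells. Its ranges did not overlap either, and its change of -0.80 ± 0.32 passed neither test (adjusted p 0.27, and 0.0606 with the block).

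The other subunits did not pass the test. MCM5, which with MCM2 forms the gate of the ring, averaged 6.69 ± 3.24 CPM in DMSO cells at 6 h and 8.69 ± 0.962 in arrested cells (SD, n = 3 each), a log2 change of -0.39 ± 0.39. MCM6, the subunit that binds CDT1, averaged 3.5 ± 0.618 CPM in DMSO cells at 6 h and 3.25 ± 1.38 in arrested cells, a change of 0.12 ± 0.77. MCM7, part of the MCM4, MCM6 and MCM7 core of the helicase, averaged 49.7 ± 5.64 CPM in DMSO cells at 6 h and 59.1 ± 16 in arrested cells, a change of -0.24 ± 0.21. AP4M1 opposite to it averaged 429 CPM in DMSO cells at 6 h and 540 in arrested cells, a change of -0.33 ± 0.18 that was called with the block only (adjusted p 0.502 without it and 0.0135 with it). For both features of this overlapping pair the change was smaller than for MCM2, MCM3 and MCM4.

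CDC6, the ATPase that with the origin recognition complex loads the ring, was close to 0 at 6 h. DMSO cells at 6 h had 1, 0 and 1 counts (0.466, 0 and 0.548 CPM), against 11, 9 and 7 counts (6.53, 4.47 and 3.56 CPM) in arrested cells. No released library reached the lowest arrested one. The summed counts, 2 against 27, give a ratio of 0.0704 between DMSO cells at 6 h and arrested cells, with an exact 95% interval of 0.00811 to 0.28 that covers counting error only. The fitted log2 change, -3.62 ± 1.0, depends on the prior count of the fit; its adjusted p was 0.0506 without the block and 0.00386 with it. With no filter on low counts it was called also without the block (adjusted p 0.0166), while the 6 fits that left out a library gave 0.0817 to 0.189. Without experiment B the change of CDC6 was -3.13.

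CDT1, the loader that carries the ring to origins, had 9.32, 17.1 and 10.4 CPM in DMSO cells at 6 h, against 12.5, 36.3 and 34.5 in arrested cells. The groups overlapped because arrested A was far below arrested B and C, and within each experiment the released library was the lower one, with log2 ratios of -0.42, -1.09 and -1.73. The change was -1.19 ± 0.40, with an adjusted p of 0.156 without the block and 0.00112 with it. Of the 6 fits that left out a library, 1 called it, the fit without arrested A (-1.50, adjusted p 0.0333), and the highest adjusted p was 0.449. With no filter on low counts it was called (-1.16, 0.0184), and DESeq2 did not call it (0.125). Without experiment B the change was -1.25.

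GMNN, the inhibitor of CDT1, had 4, 5 and 7 counts in DMSO cells at 6 h, against 0, 4 and 3 in arrested cells, with summed counts of 16 and 7. The ratio of these sums, scaled to library totals, was 2.17, with an interval of 0.846 to 6.24, so no difference could be shown at this depth. MCM10, which joins the helicase at firing, had 4, 3 and 0 counts in DMSO cells at 6 h, against 5, 4 and 7 in arrested cells. Its CPM ranges did not overlap, and its change of -1.25 ± 0.89 was far from a call (adjusted p 0.66, and 0.455 with the block).

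Other transcripts of the cycle moved between the same groups. The summed CPM of 10 G2 and mitosis genes ran from 342 to 427 in DMSO cells at 6 h and from 158 to 210 in arrested cells. The summed CPM of 6 genes of the start of S phase (CCNE1, CCNE2, E2F1, SLBP, RRM2 and PCNA) ran from 76.3 to 104 in DMSO cells at 6 h and from 117 to 158 in arrested cells. The part of cell cycle position in the changes above was not tested.

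At 4 h with DMSO, MCM2, MCM3, MCM4, MCM5, MCM7 and CDT1 had means between those of arrested cells and of DMSO cells at 6 h, and CDC6, MCM10, GMNN and MCM6 did not. None of the 9 was called against arrested cells by edgeR, which called 0.74% of features without the block and 4.77% with it. None of the 5 to which DESeq2 gave an adjusted p was called either, where it called 3.2% of features. In the edgeR fit without the block 1 gene, MCM3, had an unadjusted p under 0.05, as did 1307 of 13510 features. MCM3 had 18.5, 12.4 and 12.3 CPM in DMSO cells at 4 h, against 23.7, 21.9 and 27.9 in arrested cells. These ranges did not overlap, which was so for 1 of the 10 genes and, in the lower direction, 6.85% of features. The change of MCM3 was -0.77 ± 0.32 (adjusted p 0.399, and 0.0862 with the block). CDC6 had 5.49, 0.991 and 8.86 CPM in DMSO cells at 4 h, against 6.53, 4.47 and 3.56 in arrested cells, which spread more within the 4 h group than between the groups, with a change of 0.08 ± 0.72. CDT1 had 18.5, 32.2 and 15.8 CPM in DMSO cells at 4 h, and its change was -0.34 ± 0.38. The changes of the other tested genes from arrest to 4 h were -0.35 ± 0.31 for MCM2, -0.48 ± 0.32 for MCM4, -0.13 ± 0.38 for MCM5, -0.57 ± 0.81 for MCM6, -0.23 ± 0.21 for MCM7 and 0.15 ± 0.80 for MCM10. GMNN had 13, 5 and 3 counts in DMSO cells at 4 h, against 0, 4 and 3 in arrested cells; the ratio of the sums, 2.81 with an interval of 1.15 to 7.82, has 13 of its 21 counts at 4 h in experiment A.

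**Figure D2:**
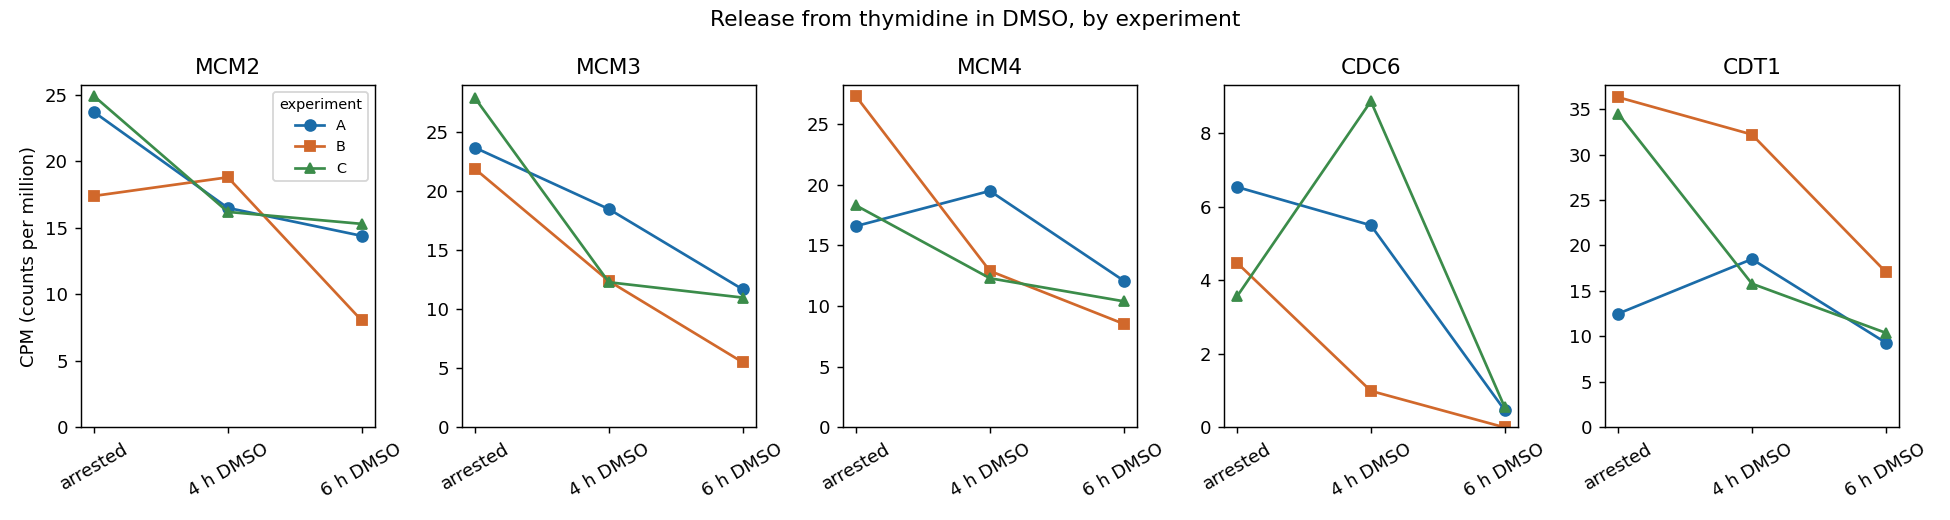
CPM (vertical axes, from 0) of 5 genes in arrested cells and in DMSO cells at 4 h and 6 h of release, with a line for each experiment. MCM3 is lower at each step in each experiment, CDC6 comes close to 0 at 6 h in all 3 experiments, and CDT1 starts low in experiment A.

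Between 4 h and 6 h with DMSO, CDC6 had 0.466, 0 and 0.548 CPM in DMSO cells at 6 h, against 5.49, 0.991 and 8.86 in DMSO cells at 4 h. All 6 h libraries were below all 4 h libraries, although 4 h B was close to them. The ratio of summed counts was 0.0655 (0.0076 to 0.257), and the fitted change was -3.70 ± 0.99, with an adjusted p of 0.263 without the block and 0.0157 with it. This was 1 of 9 genes called lower with the block, where 0.392% of features were. Without the block none was called, where 0.0814% of features were. In that fit 2 genes, CDC6 and CDT1, had an unadjusted p under 0.05, as did 672 of 13510 features. With the block 3 genes, MCM3, CDC6 and CDT1, had one, as did 1214 of 13510 features. DESeq2 called none of the 6 genes to which it gave an adjusted p, where it called 0.355% of features. CDT1 had a change of -0.85 ± 0.40 (adjusted p 0.997, and 0.143 with the block). MCM2 (-0.45 ± 0.33), MCM3 (-0.61 ± 0.35) and MCM4 (-0.52 ± 0.34) were lower at 6 h in each of the 3 experiments and, like CDC6, had ranges that did not overlap, where 4.49% of features did so in this direction. MCM6 was higher in all 6 h libraries (0.69 ± 0.80; 5.11% of features did so), on 21 counts at 6 h and 13 at 4 h. MCM5 (-0.26 ± 0.39), MCM7 (-0.01 ± 0.21) and MCM10 (-1.40 ± 0.88) overlapped between the times, as did GMNN, with 16 counts at 6 h and 21 at 4 h.

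The comparison of ATRi with DMSO asks whether these genes respond to loss of ATR activity. At 4 h none of the 9 was called by edgeR, which called 0.311% of all features without the block and 1.75% with it, and DESeq2 called none of 6, where it called 0.585% of features. With the block 3 genes, MCM2, CDC6 and CDT1, had an unadjusted p under 0.05 in edgeR, as did 1375 of 13510 features. In the edgeR fit without the block 1 gene, CDC6, had one, as did 756 of 13510 features. The log2 change was negative for 7 of 9, with a median of -0.45 against -0.01 over all features. The libraries with ATRi all lay below those with DMSO for 1 of the 10 genes, MCM2, where 4.8% of features did so.

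MCM2 had 15.5, 6.84 and 11.4 CPM in ATRi cells at 4 h, against 16.5, 18.8 and 16.2 in DMSO cells at 4 h. All 3 ATRi libraries lay below all 3 DMSO libraries; the libraries of experiment A were the closest, and those of experiment B the farthest apart. The change was -0.61 ± 0.33 (adjusted p 0.97, and 0.412 with the block), and -0.27 without experiment B. CDC6 had 2.28, 1.82 and 0.475 CPM in ATRi cells at 4 h, against 5.49, 0.991 and 8.86 in DMSO cells at 4 h. It was lower in experiments A and C and higher in B, with a change of -1.70 ± 0.79 (unadjusted p 0.0404, adjusted p 0.847, and 0.347 with the block); the summed counts were 10 against 31, a ratio of 0.301 with a counting interval of 0.132 to 0.63.

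CDT1 had 10.5, 21.9 and 11.4 CPM in ATRi cells at 4 h, against 18.5, 32.2 and 15.8 in DMSO cells at 4 h. It was lower in all 3 experiments, by log2 ratios of -0.82, -0.56 and -0.47, although the ranges of the groups overlapped. The change of -0.60 ± 0.39 was not called by edgeR (adjusted p 1). With the block it was -0.61 ± 0.27, with an unadjusted p of 0.0263, and was not called either (adjusted p 0.376). The changes of the others were -0.45 ± 0.34 for MCM3, -0.38 ± 0.33 for MCM4, 0.35 ± 0.37 for MCM5, 0.76 ± 0.79 for MCM6, -0.18 ± 0.21 for MCM7 and -0.86 ± 0.83 for MCM10. Single libraries moved these uncalled values: MCM3 was at -0.10 without ATRi B, MCM4 at -0.14 and MCM10 at -0.02 without DMSO A, CDC6 at -1.03 without DMSO C, and CDT1 at -0.22 without DMSO B and -1.0 without ATRi B. GMNN had 24 counts in ATRi cells and 21 in DMSO cells at 4 h. Over the same libraries the 10 G2 and mitosis genes summed to between 417 and 481 CPM with ATRi and between 241 and 247 with DMSO, and the 6 genes of the start of S phase to between 73.4 and 80.7 with ATRi and between 85.2 and 114 with DMSO; their part in the values above was not tested.

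At 6 h none of the 9 was called between ATRi and DMSO by edgeR, which called 0.0074% of features without the block and 0.533% with it. DESeq2 gave an adjusted p to 1 of the 10, MCM7, and did not call it, where it called 0.53% of features. In the edgeR fit without the block 1 gene, MCM2, had an unadjusted p under 0.05, as did 648 of 13510 features. MCM2 had 4.48 and 7.01 CPM in ATRi cells at 6 h (A and B), against 14.4, 8.04 and 15.3 in DMSO cells at 6 h. The groups did not overlap, which was so for 1 of the 10 genes and, in this direction, 9.07% of features. The change was -1.12 ± 0.43 (unadjusted p 0.0148, adjusted p 1, and 0.306 with the block), and within experiments the log2 ratios were -1.69 in A and -0.20 in B. CDC6 had 3 and 1 counts in ATRi cells at 6 h, against 1, 0 and 1 in DMSO cells at 6 h, and the ratio of the sums, 3.27, had a counting interval of 0.469 to 36.2. The changes of MCM3 (-0.01 ± 0.41), MCM4 (0.04 ± 0.40), MCM5 (-0.07 ± 0.46), MCM7 (-0.04 ± 0.24) and CDT1 (0.04 ± 0.48) were close to 0 beside their standard errors. MCM6 had a change of -0.49 ± 0.90 and MCM10 of -0.07 ± 1.11, and GMNN had 4 counts in ATRi cells and 16 in DMSO cells at 6 h.

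The response to ATRi at 6 h was set against that at 4 h by an interaction term. None of the 9 was called by edgeR, which called 0% of features without the block and 0.0444% with it, nor any of the 10 by DESeq2, which called 0%. CDC6 had the largest difference of the 9, 3.25 ± 1.53 (unadjusted p 0.0434, adjusted p 1, and 0.835 with the block). It was the 1 gene with an unadjusted p under 0.05 without the block, where 401 of 13510 features had one. Its DMSO cells at 6 h had 2 counts in all, and its highest library was 4 h DMSO C. The others ran from -1.25 ± 1.20 for MCM6 to 0.79 ± 1.43 for MCM10.

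**Figure D3:**
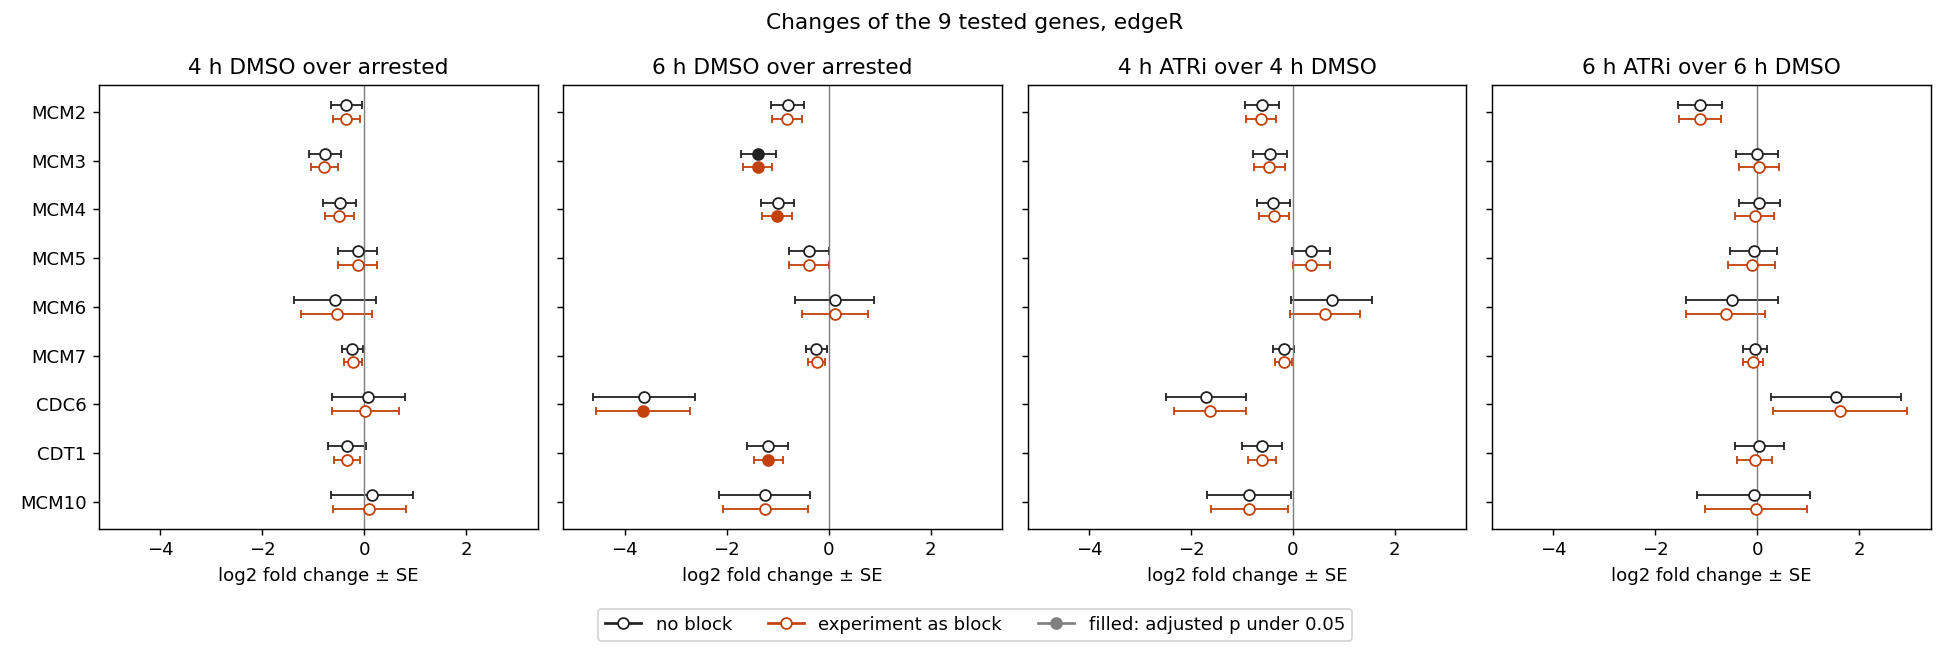
Log2 fold changes with SE (horizontal axes) of the 9 tested genes in 4 comparisons, in edgeR fits without a block (black, upper point) and with the experiment as a block (orange, lower point); filled points have an adjusted p under 0.05. Filled points appear only in 6 h DMSO over arrested, for MCM3 in both fits and for MCM4, CDC6 and CDT1 with the block.

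Arrested cells were compared with cycling cells to see where the arrest itself leaves these genes. None of the 9 was called by edgeR without the block, where 1.03% of features were. In that fit 2 genes, MCM5 and CDT1, had an unadjusted p under 0.05, as did 1336 of 13510 features. DESeq2 called none of 6, where it called 2.28% of features. CDT1 was called higher with the block, 1 of 9 where 2.81% of features were. CDT1 had 12.5, 36.3 and 34.5 CPM in arrested cells, against 16.4, 17.9 and 12.1 in cycling cells. It was higher in experiments B and C and lower in A, so the groups overlapped, and the change was 0.85 ± 0.39 (adjusted p 0.463, and 0.0477 with the block). MCM5 had 9.49, 8.95 and 7.62 CPM in arrested cells, against 19.1, 14.9 and 12.6 in cycling cells. All arrested libraries were the lower ones, which was so for 1 of the 10 genes and 8.62% of features, and the change was -0.84 ± 0.36 (adjusted p 0.417, and 0.154 with the block). The remaining changes were -0.16 ± 0.30 for MCM2, -0.35 ± 0.30 for MCM3, 0.02 ± 0.31 for MCM4, -0.56 ± 0.75 for MCM6, -0.18 ± 0.21 for MCM7, 0.33 ± 0.73 for CDC6 and -0.83 ± 0.77 for MCM10. GMNN had 7 counts in arrested cells and 19 in cycling cells.

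The order of the 6 conditions by mean CPM differed between the genes. MCM3 had 24.5 ± 3.11 CPM in arrested cells, 10.5 ± 5.33 in ATRi cells and 14.4 ± 3.53 in DMSO cells at 4 h, 9.33 ± 0.526 in ATRi cells and 9.38 ± 3.36 in DMSO cells at 6 h, and 31.3 ± 7.29 in cycling cells (SD, n = 3, and n = 2 for ATRi at 6 h). Its order from high to low was cycling, arrested, 4 h DMSO, 4 h ATRi, 6 h DMSO and 6 h ATRi, and of the neighbours in it only the 4 h DMSO and arrested libraries did not overlap. MCM2 had 22 ± 4.03 CPM in arrested cells, 11.2 ± 4.33 in ATRi cells and 17.2 ± 1.43 in DMSO cells at 4 h, 5.74 ± 1.79 in ATRi cells and 12.6 ± 3.99 in DMSO cells at 6 h, and 24.6 ± 8.38 in cycling cells. Its order was cycling, arrested, 4 h DMSO, 6 h DMSO, 4 h ATRi and 6 h ATRi, and only the DMSO libraries of the 2 times were neighbours without overlap. CDT1 was highest in arrested cells (27.8 ± 13.3 CPM) and next in DMSO cells at 4 h (22.1 ± 8.82), and the 4 other conditions, with means between 12.3 ± 4.2 in DMSO cells at 6 h and 15.5 ± 3.04 in cycling cells, overlapped with their neighbours.

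MCM4 was at 20.7 ± 5.77 CPM in arrested cells, 11.4 ± 1.66 in ATRi cells and 14.9 ± 3.98 in DMSO cells at 4 h, 10.6 ± 5.54 in ATRi cells and 10.4 ± 1.79 in DMSO cells at 6 h, and 20.5 ± 7.35 in cycling cells, with overlap between all neighbours in the order. MCM5 had means between 6.27 ± 3.33 CPM in ATRi cells at 6 h and 10.2 ± 2.27 in ATRi cells at 4 h in the treated conditions, and 15.5 ± 3.29 in cycling cells, also with overlap between neighbours. MCM7 had its lowest mean in ATRi cells at 4 h (44.3 ± 9.92 CPM) and its highest in cycling cells (66.6 ± 2.1), a narrower span relative to its level than that of MCM2, MCM3 or MCM4. CDC6 had 4.85 ± 1.52 CPM in arrested cells, 1.53 ± 0.939 in ATRi cells and 5.11 ± 3.95 in DMSO cells at 4 h, 1.11 ± 0.807 in ATRi cells and 0.338 ± 0.296 in DMSO cells at 6 h, and 3.85 ± 1.45 in cycling cells, and neighbours overlapped throughout. MCM6, GMNN and MCM10 stayed at 5.1 CPM or below in every condition mean, and neighbours in their order overlapped. MCM10 was at 1.12 ± 0.989 CPM in DMSO cells at 6 h (7 counts) and highest in cycling cells (5.1 ± 1.61 CPM, 32 counts).

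The authors' deposited table, which gives log2 ratios of the first-named condition over the second, held further comparisons of these genes. Its sizes of change can differ much from those fitted here. For CDC6 it had 0.99 for arrested cells over DMSO cells at 6 h, where edgeR gave -3.62 for the reverse ratio. Sizes should therefore not be compared between the 2 sources, and the reason for the difference was not tested. In the authors' deposited table MCM3 was at 1.03 for arrested cells over DMSO cells at 6 h (adjusted p 0.00988), so it was lower at 6 h there too. The authors' deposited table also gave MCM3 adjusted p-values of 0.0208 for arrested cells over ATRi cells at 4 h (log2 0.92) and 0.0331 over ATRi cells at 6 h (0.97). Against cycling cells, the authors' deposited table had MCM3 at -1.19 in ATRi cells at 4 h (adjusted p 0.00105), -1.24 in ATRi cells at 6 h (0.00159), -1.30 in DMSO cells at 6 h (6.12e-04) and -0.87 in DMSO cells at 4 h (0.0509). For MCM2 the authors' deposited table had -0.84 in ATRi cells at 4 h (adjusted p 0.0377) and -1.33 in ATRi cells at 6 h (7.54e-04) over cycling cells, and 1.21 for arrested cells over ATRi cells at 6 h (0.00343). No other gene of the 10 had an adjusted p under 0.05 in any of the authors' 15 comparisons, and for MCM6, CDC6, GMNN and MCM10 that table gives none.

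Genes that act before and after loading were followed on release in 3 lists. Of 7 genes of the origin recognition complex and its partner LRWD1, 5 passed the filter and none was called in any of the 7 comparisons, with or without the block. At 6 h with DMSO the median log2 change of these 5 was 0.07. ORC1, the subunit whose RNA is itself cell cycle controlled, had 1.85 ± 1.45 CPM in DMSO cells at 6 h and 5.39 ± 4.16 in arrested cells (-1.53 ± 0.83, adjusted p 0.493). ORC2 averaged 6.24 ± 1.59 CPM in DMSO cells at 6 h and 4.29 ± 2.76 in arrested cells (0.51 ± 0.44, adjusted p 0.751). Of 17 genes of helicase activation and firing, 15 passed the filter and none was called without the block, while MTBP, the partner of treslin (TICRR), was called lower with the block at both times of release, 1 of 15 where 3.94% of all features were at 6 h and 2.52% at 4 h. MTBP averaged 34.6 ± 9.91 CPM in DMSO cells at 6 h and 52.6 ± 13.7 in arrested cells (-0.60 ± 0.25, adjusted p 0.287, and 0.0278 with the block). The median over the 15 at 6 h was -0.09, and MCM8 (-1.45 ± 0.56) and DBF4B (1.26 ± 0.52) had the smallest p. With ATRi the 2 of smallest p were at 4 h MCM9, the partner of MCM8 (0.45 ± 0.18, adjusted p 0.704), and DBF4, the activator of CDC7 (0.72 ± 0.30, 0.744), and at 6 h TICRR (-0.46 ± 0.26, adjusted p 1) and DONSON (0.23 ± 0.17, adjusted p 1).

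Of 13 genes of turnover and control of licensing, 11 passed the filter, and 2 rose at 6 h with DMSO, where 1.27% of all features did: CDC20, the activator of the anaphase-promoting complex, and CCNF, the cyclin F that targets CDC6 for destruction. CDC20 had 34.5 ± 8.88 CPM in DMSO cells at 6 h and 8.71 ± 1.93 in arrested cells (1.97 ± 0.30, adjusted p 2.49e-04). CCNF had 22.1 ± 3.09 CPM in DMSO cells at 6 h and 6.53 ± 0.431 in arrested cells (1.75 ± 0.29, adjusted p 6.85e-04). With the block FZR1, which activates the same complex in G1, was also called higher, 3 of 11 where 3.77% of features were (1.11 ± 0.32, adjusted p 0.0603, and 5.76e-04 with the block), and CCNA2, cyclin A2, was the 1 of 11 called lower, where 3.94% were (-0.43 ± 0.18, 0.281 and 0.0205). In arrested against cycling cells CDC20 was lower (-1.72 ± 0.30, adjusted p 0.00214), 1 of 11 where 0.429% of features were. With the block CUL4A, the scaffold of the CDT1 ubiquitin ligase, was lower too (-0.72 ± 0.23, 0.191 and 0.0106), 2 of 11 where 2.83% of features were. With the block, CDC20 was the 1 of 11 called higher with ATRi at 4 h (0.90 ± 0.27, adjusted p 0.297, and 0.012 with the block), where 1.2% of features were, and the 1 of 11 called higher at 6 h than at 4 h with DMSO (0.85 ± 0.27, 0.504 and 0.0358), where 0.651% were. At 4 h against arrested cells the block gave 2 of 11 higher, CDC20 (1.12 ± 0.31, 0.0989 and 0.00572) and CCNF (1.11 ± 0.30, 0.0834 and 0.0213), where 2.25% of features were. It gave 1 lower, CCNE2, cyclin E2 (-0.71 ± 0.22, 0.157 and 0.00574), where 2.52% were. With ATRi at 6 h the 2 of smallest p were DTL, which directs the CDT1 ligase (-1.76 ± 0.79, adjusted p 1), and CDC20 (0.62 ± 0.28, adjusted p 1). ORC2, MTBP, MCM9, DBF4, TICRR, DONSON, CCNF, FZR1, CCNA2, CCNE2 and CUL4A share exon bases with a feature on the opposite strand. Their counts are thus uncertain as to the gene. CDC20 and DTL share none, but whether their counts are reads of their own strand is uncertain too.

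Across the 17 libraries the 10 genes were compared with each other on log2 CPM (prior count 2), after the mean of each experiment was subtracted. Of 45 pairs 41 had a positive Pearson's r, with a median of 0.470 and a range of -0.270 to 0.880, which is a description over libraries that share conditions and experiments. The highest were MCM3 with MCM4 (0.880), and MCM2 with MCM3 and with MCM4 (0.817 each), and MCM3 with MCM7 stood at 0.799. MCM6 with CDT1 was the lowest. Against the mean of the 10 genes, which contains each of them, MCM3 had an r of 0.936, MCM2 0.905, MCM4 0.897, MCM10 0.758, MCM7 0.744, MCM5 0.709, CDC6 0.597, CDT1 0.540, MCM6 0.390 and GMNN 0.254.

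**Figure D4:**
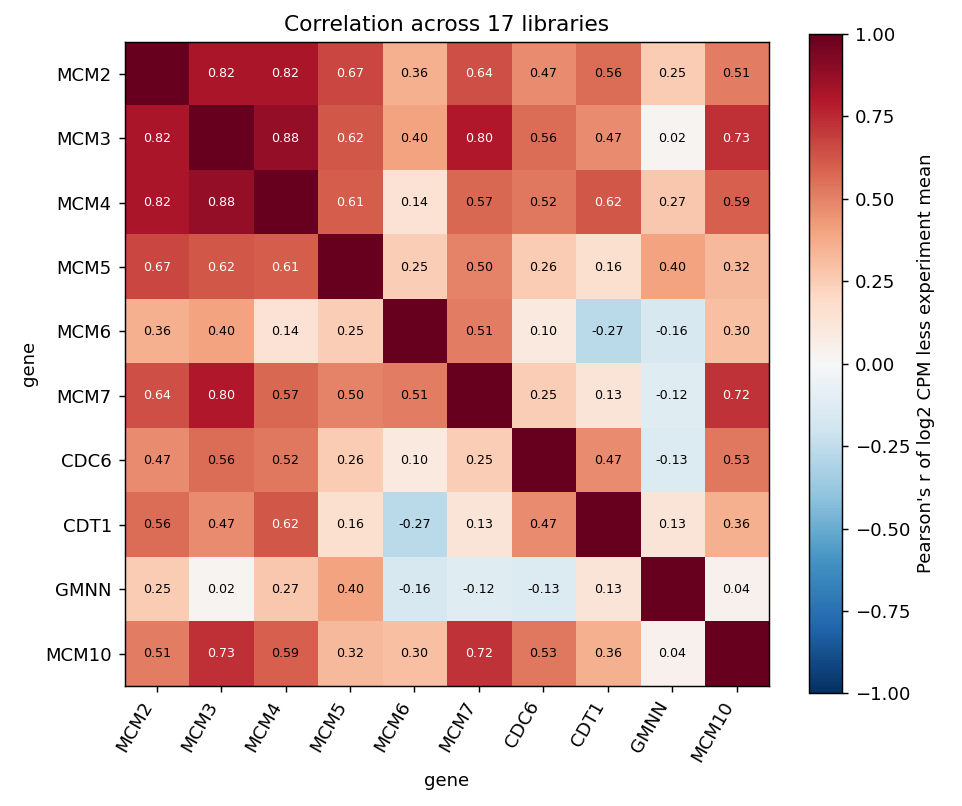
Pearson's r of log2 CPM, less the mean of each experiment, across the 17 libraries for each pair of the 10 genes (both axes), coloured from -1 (blue) to 1 (red). MCM2, MCM3 and MCM4 form the block of highest values, up to 0.880, and MCM6 and GMNN are palest.

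Among 10279 other features with a mean of at least 5 CPM, the 5 most like the mean of the 10 genes across 17 libraries were TLE3 (r 0.933), DNMT1 (0.911), ENSG00000236266 (0.903), ENSG00000272909 (0.897) and PAPPA-AS1 (0.896). The median r of all these features was 0.029 and the 99th percentile 0.790. DNMT1, the maintenance DNA methyltransferase that works behind the fork, averaged 79.6 CPM in arrested cells, 62.4 in ATRi cells and 66.8 in DMSO cells at 4 h, 54.3 in ATRi cells and 59.4 in DMSO cells at 6 h, and 89.5 in cycling cells. TLE3, a transcriptional corepressor, averaged 14 CPM in arrested cells, 7.86 in ATRi cells and 12.6 in DMSO cells at 4 h, 8.46 in ATRi cells and 9.1 in DMSO cells at 6 h, and 19.7 in cycling cells. Both were highest in cycling cells and second in arrested cells, as was the helicase sum. They were picked for their likeness to these genes over the same libraries, so this is not a separate result.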

How the data were processed

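RNA of 17 libraries in 6 conditions was analysed; experiment C of 6hr_release_ATRi is not analysed here. The authors deposited read counts per gene ID, whole numbers that were not normalised, and a table of log2 ratios with an adjusted p-value for each of 15 comparisons, whose direction was checked against the deposited counts. The submitters' processing notes name TopHat, HTSeq, DESeq2 and the build GRCh37; no source used here gives their versions, the annotation release or the strand setting. Names matched 55528 of 60252 IDs; which exons overlap came from a GENCODE annotation of GRCh38, whose build differs from that of the counts, so no coordinates were taken from it. Promoters are those of RefSeq (GRCh38.p14).

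Features were kept by edgeR's filterByExpr (minimum count 10, minimum total 15; 13510 kept). edgeR 4.0.16 in R 4.3.3 (TMM, glmQLFit with robust estimation, glmQLFTest) was fitted to the 17 libraries together, with 1 mean for each condition and 11 residual degrees of freedom, and tested on simulated data. DESeq2 1.42.0 and other settings were alternatives. CPM used TMM-scaled totals. Intervals are exact, at 95%, and cover counting error only, since counts carry no molecular identifiers.

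For deviations from the condition means, r across features was 0.138 to 0.534 for 17 same-letter pairs and -0.455 to 0.262 for 34 other pairs. Such deviations cancel within a condition, which by itself lowers the r of other pairs. The highest r were those of B with B (0.403 to 0.534), while A with C reached 0.262 and A with A fell to 0.138. The values thus set B apart but do not clearly separate A from C. Reading the letters as experiments is therefore an assumption, and the main edgeR fit did not pair libraries by letter. The log2 ratios within experiments and the alternative fit with a block for the letter rest on it. Where that block changes a result, its value is given beside the unblocked one. The genes, the 3 pathway lists and the tests were chosen with earlier results of these data known. Named are all 10 genes, features overlapping them, every called list gene (otherwise the 2 of smallest p, given for release to 6 h and for ATRi), and the 5 features most like their mean.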

Additional observations from a re-analysis of the deposited data

How the results depend on the processing

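Low counts limit every value here: MCM6, CDC6, GMNN and MCM10 had 89 to 115 counts over all libraries, and 6hr_release_ATRi had 1 library left without A, without B or without experiment B, whose spread was then assumed to equal that of the other conditions. The experiment as a replicate block raised the number of features called to 237 for ATRi against DMSO at 4 h (42 without it), 72 at 6 h (1), 6 for the difference of these responses (0), 141 for 6 h against 4 h with DMSO (11), 644 for 4 h DMSO against arrested cells (100), 1041 for 6 h DMSO against arrested cells (314) and 762 for arrested against cycling cells (139). Beyond the calls given in the text, the block changed no call of the 10 genes. It turned the sign of the 6 h ATRi values of MCM3 (0.04), MCM4 (-0.05) and CDT1 (-0.05). Without experiment B the counts in the same order of comparisons were 85, 25, 3, 82, 418, 771 and 264. With DESeq2 they were 19 for ATRi at 6 h, 33 for 6 h against 4 h with DMSO and 188 for 4 h DMSO against arrested cells. With no filter on low counts they were 10 for ATRi at 6 h and 34 for 6 h against 4 h. With a minimum count of 30 they were 7 for ATRi at 6 h, 25 for 6 h against 4 h, 169 for 4 h against arrested cells and 224 for arrested against cycling cells. With only the groups compared in the fit they were 22 and 2 for ATRi at 4 h and 6 h, and 59 for 4 h against arrested cells. The cause of these differences was not tested.

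Of 407 values of these genes and AP4M1 recomputed under such settings, 17 changed sign, 11 were newly called and 0 lost their call. Without experiment B the log2 changes that turned were MCM7 with ATRi at 4 h (0.01); MCM4 (-0.75), MCM6 (0.06), CDT1 (-0.23) and MCM10 (0.16) with ATRi at 6 h; MCM3 (-0.14), MCM4 (-0.40) and MCM7 (-0.10) for the difference of the responses; MCM5 (0.20) and MCM7 (0.03) for 6 h against 4 h; and MCM2 (0.05) and MCM4 (-0.17) for arrested against cycling cells. A value that rounds to 0.00 came from MCM3 with ATRi at 6 h at a minimum count of 30 and from MCM7 at 6 h against 4 h with only those groups.

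Leaving out each library in turn gave 13 to 41 features called for ATRi at 4 h, 1 to 2 at 6 h, 7 to 14 for 6 h against 4 h, 26 to 85 for 4 h against arrested cells, 143 to 299 for 6 h against arrested cells and 50 to 86 for arrested against cycling cells. Among 417 values of single genes, 35 changed sign, 1 was newly called and 4, all of MCM3 at 6 h against arrested cells (-1.56 to -1.11), were no longer called. Log2 changes ran from -0.32 to 0.01 for MCM7 with ATRi at 4 h. With ATRi at 6 h they ran from -0.27 to 0.17 for MCM3, -0.62 to 0.46 for MCM4, -0.74 to 0.38 for MCM5, -1.67 to 0.16 for MCM6, -0.11 to 0.04 for MCM7, -0.54 to 0.42 for CDT1 and -0.59 to 0.46 for MCM10. For the difference of the responses they ran from -0.25 to 0.83 for MCM4, -1.11 to 0.01 for MCM5, -0.05 to 0.27 for MCM7 and -0.05 to 1.32 for MCM10. MCM7 ran from -0.16 to 0.15 at 6 h against 4 h. At 4 h against arrested cells the ranges were -0.36 to 0.05 for MCM5, -0.38 to 0.02 for MCM7, -0.57 to 0.58 for CDC6 and -0.67 to 0.49 for MCM10. At 6 h against arrested cells they were -0.12 to 0.50 for MCM6, -0.37 to 0.02 for MCM7 and -1.51 to -0.93 for CDT1. In arrested against cycling cells they were -0.39 to 0.10 for MCM2 and -0.22 to 0.30 for MCM4. None of the 72 mean levels moved by 1 SD on raw library totals.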
